A study of Mus musculus with 12 samples.

Results

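The genes described here were 9 regulators and early products of the skeletal muscle programme, namely Pax7, Myf5, Myod1, Myog, Myf6, Cdh15, Myh3, Myh8 and Actc1. They were picked by name, with earlier results of these data known, and all 9 were present among the 15344 genes of the deposited mouse quadriceps RNA-Seq data. There were 12 libraries, 1 for each mouse, in 3 groups of 4, and all mice were 6 months old. The group labelled WT held untreated wild-type C57BL/6 mice. The group labelled KO held mice described as knockouts of Gaa, the gene of the lysosomal glycogen-degrading enzyme acid alpha-glucosidase, on the C57BL/6 background, injected with PBS. The group labelled AAV held mice of the same knockout that received the vector AAV2/8-LSPhGAApA in the tail vein at 2 months of age, at a dose of 2e12 vg/kg. The knockout is not restricted to a tissue, and the vector drives human GAA from a liver-specific promoter, so that muscle depends on enzyme from the blood. The comparisons ask how these genes differ in muscle labelled as lacking the enzyme (KO against WT) and after the liver-directed gene transfer (AAV against KO and AAV against WT).

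Total reads per library lay between 22122233 and 47379737, all libraries expressed the skeletal fibre markers (summed level 5179137 to 8176398 normalized counts), and the values of Gaa itself went against the labels. Gaa was at 342.9, 14640, 323.8 and 460.3 normalized counts in the libraries labelled WT, at 12151, 13075, 11936 and 12895 in those labelled KO, and at 946.8, 587, 499.6 and 9854 in those labelled AAV. These are levels of messenger RNA, and enzyme activity and glycogen, which the study also measured, were not analysed here. A label is used throughout as the name of a library, and each direction below is one between labels. Were the labels of WT and KO exchanged, the sign of every fold change between them would turn, and the values given for AAV against KO and AAV against WT would trade places. WT 2 and AAV 4, the libraries that stood apart in Gaa, are left out of single results below where that is stated.

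Satellite cells are the resident stem cells of skeletal muscle and carry the paired-box factor Pax7. When they are activated they express the basic helix-loop-helix factors Myf5 and Myod1, and myogenin (Myog) then accompanies their exit from the cell cycle and their fusion into fibres, while Myf6, also called Mrf4, is the member of that family with the highest level in mature fibres. Newly formed or regenerating fibres assemble embryonic myosin (Myh3), perinatal myosin (Myh8) and cardiac alpha-actin (Actc1) before the adult isoforms replace them.

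The genes lie on 7 chromosomes of the mouse build GRCm38 and are all annotated as protein coding in GENCODE M21. Pax7 (ENSMUSG00000028736) lies at chr4:139737062-139833528 on the minus strand. Myf5 (ENSMUSG00000000435, chr10:107482908-107486134) and Myf6 (ENSMUSG00000035923, chr10:107492853-107494737) are neighbours on the minus strand. Myod1 (ENSMUSG00000009471) lies at chr7:46376474-46379099 and Myog (ENSMUSG00000026459) at chr1:134289989-134292548, both on the plus strand. Cdh15 (ENSMUSG00000031962), the gene of M-cadherin, lies at chr8:122847966-122867397 on the plus strand. Myh3 (ENSMUSG00000020908, chr11:67078300-67102291) and Myh8 (ENSMUSG00000055775, chr11:67277124-67308634) belong to the myosin heavy chain cluster on the plus strand, and Actc1 (ENSMUSG00000068614) lies at chr2:114047282-114053548 on the minus strand. No exon base of these genes is shared with another annotated gene. Since the myosins and actins are families of similar genes, the longest transcript of each gene was compared with all protein-coding transcripts. The closest relative of Myh3 was Myh2 (81.8% identity over 96.9% of the transcript), that of Myh8 was Myh1 (89.2% over 94.6%), and that of Actc1 was Acta1 (86.3% over 76.8%). None of the 9 genes had another gene at 90% identity or more over at least 50% of its transcript, and the authors kept only reads that mapped to a single location.

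The promoters of the 4 genes that passed the thresholds between KO and WT are shown because these genes moved in the same direction, as bases upstream of the RefSeq start (GRCm38.p6), 5′ to 3′, ending where an exon of GENCODE M21 begins within the window. Capitals mark matches on either strand to 4 motifs chosen after the values were known, namely the E-box (CANNTG, the element that myogenic helix-loop-helix factors bind), the MEF2 site, the CArG box of serum response factor and the TATA box (TATAAA).
Myh3 (chr11:67078050-67078299, plus strand): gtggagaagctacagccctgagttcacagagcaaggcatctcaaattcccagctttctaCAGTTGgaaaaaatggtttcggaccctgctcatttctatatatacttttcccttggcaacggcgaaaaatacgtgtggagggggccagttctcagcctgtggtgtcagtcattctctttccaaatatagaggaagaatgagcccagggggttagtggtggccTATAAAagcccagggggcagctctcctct
Myh8 (chr11:67276874-67277123, plus strand): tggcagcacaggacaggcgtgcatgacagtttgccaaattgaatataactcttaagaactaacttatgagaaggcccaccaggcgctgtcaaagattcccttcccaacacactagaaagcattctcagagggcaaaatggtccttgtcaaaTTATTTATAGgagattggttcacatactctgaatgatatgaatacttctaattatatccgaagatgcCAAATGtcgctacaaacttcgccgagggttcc
Myog (chr1:134289754-134289988, plus strand): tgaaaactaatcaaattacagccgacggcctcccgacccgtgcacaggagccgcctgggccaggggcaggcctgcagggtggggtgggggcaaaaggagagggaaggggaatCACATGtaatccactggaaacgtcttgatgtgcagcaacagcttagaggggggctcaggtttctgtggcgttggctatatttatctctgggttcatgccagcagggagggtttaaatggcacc
Actc1 (chr2:114052888-114053125, minus strand): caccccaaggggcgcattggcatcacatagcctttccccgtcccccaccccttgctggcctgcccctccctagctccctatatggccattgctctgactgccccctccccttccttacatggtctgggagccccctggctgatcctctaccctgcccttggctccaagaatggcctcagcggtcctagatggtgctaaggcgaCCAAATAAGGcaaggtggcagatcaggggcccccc
Counted from the RefSeq start, Myh3 had an E-box at -191 to -186 and a TATA box at -29 to -24. Myh8 had an E-box at -32 to -27 and a MEF2 site at -99 to -90. Within that MEF2 site, the letters at -96 to -91 match the TATA box on the opposite strand only. Myog had an E-box at -138 to -133 and another at -12 to -7, where the window is already exonic in GENCODE M21 and is not printed. Actc1 had a CArG box at -47 to -38 and no E-box in this window, which lies inside the annotated gene, upstream of the first exon of 1 transcript and within an intron of another that starts farther upstream. Of 32851 mouse promoter windows of 250 bases, 66.2% held an E-box, 12.4% a TATA box, 2.92% a MEF2 site and 1.47% a CArG box. Of the 9 genes, 7 had a promoter entry. The windows of Pax7 and Cdh15 lay wholly within exons of GENCODE M21 (250 of 250 bases), so that no promoter bases were left to describe, and that of Myf5 held none of the 4 motifs. These matches describe letters only.

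Levels were compared between genes as normalized counts per kb of exons. In the libraries labelled WT, Actc1 was highest (4899 ± 2619 SD, n = 4), followed by Myf6 (2735 ± 644), Myod1 (603 ± 78.5), Cdh15 (351 ± 104), Myog (349 ± 156), Myh3 (138 ± 73.8), Myh8 (115 ± 65.1), Pax7 (20.1 ± 6.99) and Myf5 (16.1 ± 3.83). Neighbours in this order overlapped over the 4 libraries except Myf6 and Myod1 (at least 2006 against at most 675) and Myod1 and Cdh15 (at least 504 against at most 460). In the libraries labelled KO, Myf6 came first (2451 ± 450) and Actc1 second (1264 ± 491), and the 3 lowest were Pax7 (14.2 ± 2.08), Myf5 (14.0 ± 3.39) and Myh3 (13.7 ± 3.75), which overlapped. In the libraries labelled AAV the order began with Myf6 (2287 ± 292) and Actc1 (1944 ± 1290), and Myh3 was at 83.6 ± 62.8. The order depends on the length used, as the annotated exons of Myh8, for example, span 11772 bases of which 5885 are coding. Per kb of coding sequence, Myh8 was above Myh3 in WT (230 ± 130 against 144 ± 76.8) and Myog above Cdh15 (775 ± 347 against 486 ± 143), with overlapping libraries in both pairs. In KO on that scale Myh3 was lowest (14.2 ± 3.90) and did not overlap with Myf5 (38.2 ± 9.23), Myh8 (41.4 ± 7.78) or Pax7 (55.0 ± 8.03).

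**Figure D1:**
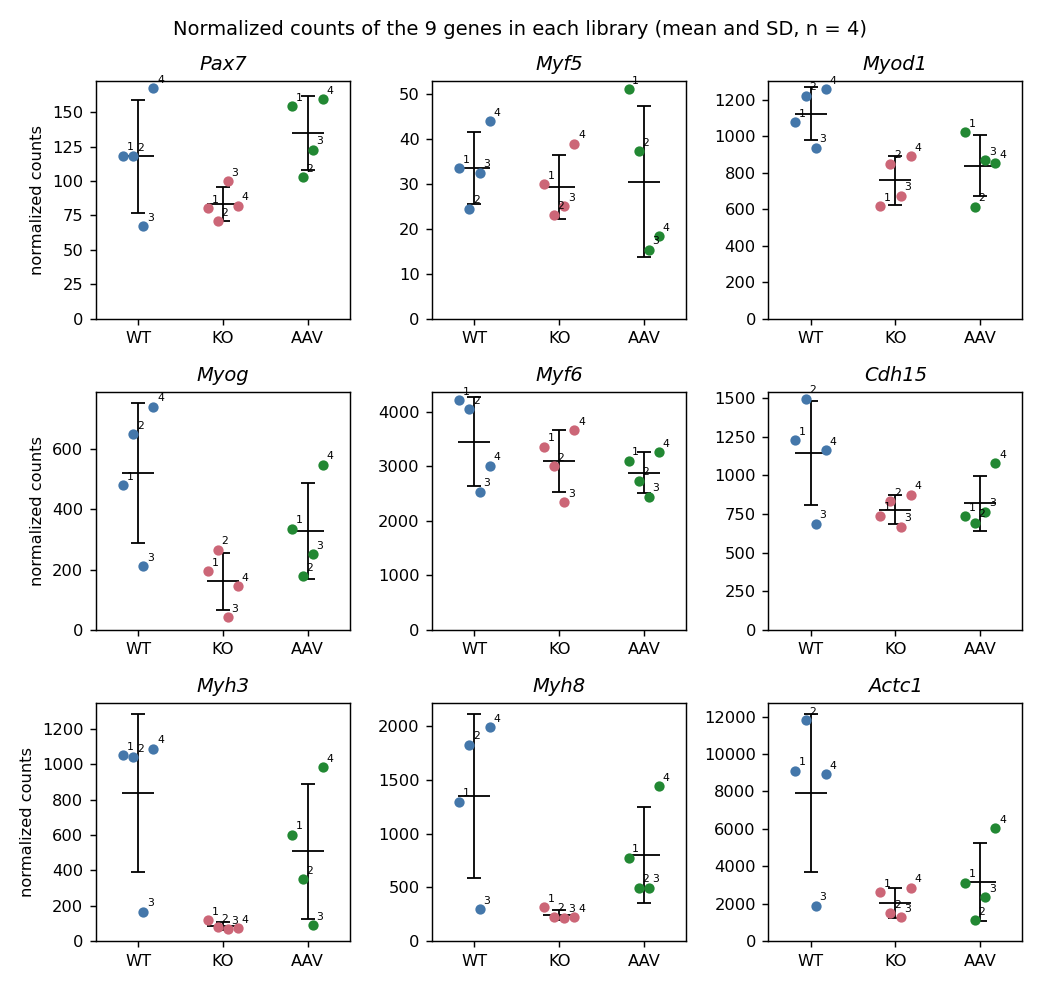
Normalized counts (y axis, linear, from 0) of each of the 9 genes in the 12 libraries, grouped on the x axis by label. Points are libraries with their replicate number, and bars give the mean and SD of 4. Myh3, Myh8 and Actc1 are low in all 4 KO libraries and in WT 3, with Myh3 at 166.4 in WT 3 and at 1040 to 1088 in the other WT libraries.

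In muscle labelled KO, the developmental sarcomere genes were far lower than in WT. Myh3 fell 8.19-fold, Myh8 4.49-fold and Actc1 3.39-fold (all folds on the log2(value + 1) scale), and myogenin fell 3.52-fold. Myod1 was lower by a smaller factor, and the satellite cell marker Pax7, Myf5, Myf6 and Cdh15 did not pass the test. Of the 9 genes, 4 passed both thresholds, an adjusted p below 0.05 and a log2 fold change of 1 or more in size (limma, Benjamini-Hochberg over 14859 genes), all 4 lower in KO, where 8.5% of all genes tested passed in that direction. The 4 calls became 2 without WT 1, WT 2, WT 4, KO 1 or KO 3. By the adjusted p alone 5 genes were lower, against 15.3% of all genes. All 9 log2 fold changes were below 0, with a median of -0.58 against 0.02 for all genes tested. In 2 of the 9 genes, Myh3 and Myod1, every KO library was below every WT library, which held for 15.1% of all genes.

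Myh3, the embryonic heavy chain, was at 1051, 1040, 166.4 and 1088 normalized counts in WT 1 to WT 4 and at 115.9, 76.96, 65.26 and 72.5 in KO 1 to KO 4. The groups did not overlap, although WT 3 lay nearer to the KO libraries than to the other WT libraries. The log2 fold change of Myh3 was -3.03 (SE 0.55, limma adjusted p = 0.00513), and without WT 3 it was -3.70.

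Myh8, the perinatal heavy chain, was at 1298, 1828, 293 and 1992 in the WT libraries and at 312.1, 226.6, 215.4 and 221 in the KO libraries. WT 3 fell below KO 1, and the other WT libraries were all above the KO range. Its log2 fold change was -2.17 (SE 0.52, limma adjusted p = 0.0144), and -2.80 without WT 3. Leaving out any other single library kept both myosins past the thresholds, with adjusted p of at most 0.0194 for Myh3 and 0.0462 for Myh8.

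Actc1, the actin of heart and of immature skeletal fibres, was at 9103, 11807, 1889 and 8908 in WT and at 2605, 1468, 1265 and 2844 in KO. Here too WT 3 lay within the KO range and the other 3 WT libraries above it. Its log2 fold change was -1.76 (SE 0.53, limma adjusted p = 0.0337). The call was lost without WT 1, WT 2, WT 4, KO 1, KO 2 or KO 3 (adjusted p 0.0852, 0.0956, 0.0908, 0.0571, 0.0861 and 0.0867), and without WT 3 the log2 fold change was -2.35.

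Myog, the factor of terminal differentiation, was at 481.4, 650.6, 211 and 741.2 in WT and at 194.2, 266, 41.33 and 145 in KO. The groups overlapped through WT 3 and KO 2, and KO 3 held the lowest value. Its log2 fold change was -1.82 (SE 0.56, limma adjusted p = 0.0378). It was no longer called without WT 1, WT 2, WT 4, KO 1, KO 3 or KO 4 (adjusted p 0.0790, 0.1, 0.102, 0.0581, 0.0632 and 0.0735).

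Myod1, the factor that commits myoblasts, was at 1077, 1221, 937.4 and 1256 in WT and at 615.5, 847.5, 674.4 and 891.3 in KO. Every KO library was below every WT library, with 891.3 against 937.4 at the nearest. The log2 fold change was -0.58 (SE 0.16, limma adjusted p = 0.0248), which is under the fold threshold. Without WT 1, WT 2, WT 4, KO 1 or KO 3 the adjusted p lay between 0.0508 and 0.0739.

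The other 4 genes did not pass. Pax7 was at 118.5, 118, 67.37 and 167.7 in WT and at 80.2, 70.98, 100.1 and 82.23 in KO, so that WT 3 was the lowest of all 8 libraries. Its log2 fold change was -0.43 (95% interval -1.03 to 0.16, limma adjusted p = 0.237), and without WT 3 it was -0.68 with an adjusted p of 0.0166. Cdh15, an adhesion molecule of satellite cells and myoblasts, was at 1227, 1495, 685.8 and 1161 in WT and at 737.2, 832.9, 665.7 and 875.3 in KO. The log2 fold change of Cdh15 was -0.51 (SE 0.22, limma adjusted p = 0.109), with WT 3 again within the KO range, and without WT 3 it was -0.73 with an adjusted p of 0.00168. Myf5, an early determination factor, was at 33.48, 24.45, 32.47 and 43.89 in WT and at 29.95, 23.09, 25.02 and 38.9 in KO. Myf6, the factor of mature fibres, was at 4217, 4054, 2533 and 3012 in WT and at 3360, 3007, 2347 and 3670 in KO. Both groups overlapped broadly for these factors, with log2 fold changes of -0.19 (95% interval -0.79 to 0.41, limma adjusted p = 0.612) for Myf5 and -0.15 (-0.58 to 0.29, adjusted p = 0.598) for Myf6. In whole muscle, fewer cells of a type and less RNA per cell cannot be told apart.

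**Figure D2:**
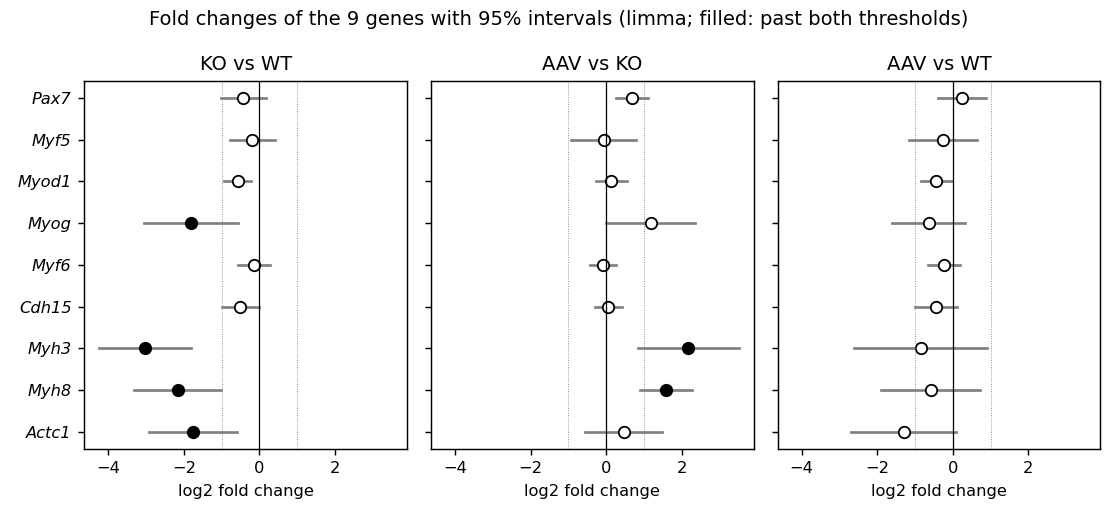
Log2 fold change (x axis, log2 scale) of each gene (y axis) in the 3 comparisons, with 95% intervals from limma on log2(value + 1). Filled circles pass both thresholds and dotted lines mark a log2 fold change of -1 and 1. Filled circles are Myog, Myh3, Myh8 and Actc1 in KO against WT and Myh3 and Myh8 in AAV against KO.

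In muscle labelled AAV, the developmental myosins were higher than in KO. Myh3 rose 4.54-fold and Myh8 rose 2.998-fold, Pax7 was higher by a smaller factor, and the values of Myog and Actc1 in AAV lay on average between those of KO and WT without passing the test. Of the 9 genes, 2 passed the thresholds (limma, Benjamini-Hochberg over 14894 genes), both higher in AAV, where 5.43% of all genes passed in that direction. The median log2 fold change was 0.46 against 0.04 for all genes, 7 of the 9 values were above 0, and in 2 genes every AAV library was above every KO library (14.8% of all genes). A single call was left without KO 2, KO 3, KO 4 or AAV 1. By the adjusted p alone 3 genes were higher, against 12.8% of all genes. This comparison and that of KO with WT share the KO libraries, so that a low value in these libraries enters both.

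Myh3 was at 600.9, 350.4, 89.76 and 983.8 in AAV 1 to AAV 4, against 65.26 to 115.9 in KO. AAV 3 remained within the KO range, and the other 3 AAV libraries were above it. The log2 fold change was 2.18 (SE 0.60, limma adjusted p = 0.0266). It was 2.86 without AAV 3, and the call was lost without KO 2, KO 3, KO 4 or AAV 1 (adjusted p 0.0627, 0.0597, 0.0668 and 0.0789).

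Myh8 was at 777.3, 495.3, 494.8 and 1443 in the AAV libraries, all above the highest KO value of 312.1. Its log2 fold change was 1.58 (SE 0.31, limma adjusted p = 0.00878), and it was past the thresholds whichever library was left out, with a highest adjusted p of 0.0299. In a single fit of all 12 libraries the adjusted p was 0.0511.

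Pax7 was at 154.4, 102.7, 122.8 and 159.7 in AAV, all above the highest KO value of 100.1 and within the range spanned by WT. The log2 fold change of Pax7 was 0.68 (SE 0.19, limma adjusted p = 0.0303), which is under the fold threshold. Without KO 1, KO 2, KO 4, AAV 1 or AAV 4 the adjusted p was between 0.0593 and 0.0845.

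Myog was at 336.3, 178.2, 251.6 and 548.8 in AAV, with AAV 2 and AAV 3 inside the KO range. For Myog the log2 fold change was 1.18 (95% interval -0.01 to 2.36, limma adjusted p = 0.124). Actc1 was at 3112, 1116, 2334 and 6023 in AAV, and AAV 2 was below every KO library. The log2 fold change of Actc1 was 0.46 (95% interval -0.56 to 1.47, limma adjusted p = 0.47), an interval wide enough to hold both a decrease and a rise above the fold threshold.

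Myod1 was at 1021, 614.1, 868 and 849.8 in AAV, with a log2 fold change of 0.14 (95% interval -0.26 to 0.54, limma adjusted p = 0.573). Cdh15 was at 734.6, 693.7, 765.3 and 1077, with a log2 fold change of 0.06 (-0.29 to 0.41, adjusted p = 0.799). The values of both genes overlapped with those in KO. Myf5 was at 50.99, 37.25, 15.35 and 18.35, and Myf6 at 3108, 2741, 2441 and 3262. Their log2 fold changes were -0.07 (-0.94 to 0.79, limma adjusted p = 0.896) and -0.09 (-0.43 to 0.25, adjusted p = 0.681), and both were above 0 when libraries were scaled to equal totals. AAV 3 and AAV 4 held the lowest Myf5 values of all 12 libraries.

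Between AAV and WT, none of the 9 genes passed the thresholds in limma, and none passed an adjusted p of 0.05 alone. The share of all genes past both thresholds was 0.951%, and 1.29% passed the adjusted p alone. DESeq2 and edgeR on recovered reads also called 0 of the 9, and 1 gene, Myod1, had an unadjusted p under 0.05. No gene of the 9 had groups that did not overlap, which held for 11.7% of all genes. In AAV, 8 of the 9 log2 fold changes were below 0, and their median was -0.45 against -0.03 for all genes. The intervals were wide for the developmental genes, at -0.85 (95% interval -2.61 to 0.91, adjusted p = 0.589) for Myh3, -0.58 (-1.90 to 0.73, adjusted p = 0.62) for Myh8, -1.30 (-2.69 to 0.09, adjusted p = 0.3) for Actc1 and -0.64 (-1.61 to 0.33, adjusted p = 0.455) for Myog. They were narrower for 3 other genes, at -0.44 (-0.84 to -0.03, adjusted p = 0.245) for Myod1, -0.24 (-0.66 to 0.19, adjusted p = 0.532) for Myf6 and -0.45 (SE 0.25, adjusted p = 0.355) for Cdh15. Pax7 was at 0.24 (-0.40 to 0.88, adjusted p = 0.677) and Myf5 at -0.27 (-1.17 to 0.63, adjusted p = 0.752). Single libraries moved these values. Without WT 3 they were -1.52 for Myh3, -1.21 for Myh8 (adjusted p = 0.0885) and -1.90 for Actc1 (adjusted p = 0.0549), and without AAV 3 the value of Myh3 was -0.17. With WT 2 and AAV 4, the libraries apart in Gaa, both left out, the values were -1.11 for Myh3, -0.66 for Myh8, -1.41 for Actc1 and -0.77 for Myog, and 0 of the 9 genes were called.

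The libraries of a group did not vary independently from gene to gene. WT 3 was the lowest WT library for 8 of the 9 genes, with Myf5 as the exception, and AAV 4 was the highest AAV library for 7, with Myf5 and Myod1 as exceptions. KO 3 was the lowest KO library for 6 genes. Across all 12 libraries Myh3 and Myh8 varied most alike (Pearson r = 0.95 on the log2 scale, and 0.87 for deviations from the group means), followed by Cdh15 and Actc1 (0.93 and 0.89), Myh8 and Actc1 (0.87 and 0.89) and Myog and Myh8 (0.85 and 0.69). Pax7 followed Myh8 (0.82 and 0.84) more than it followed Myod1 (0.45 and 0.51). Myf5, the lowest gene, had an r of -0.07 to 0.26 with the other 8. These correlations describe 12 libraries that share group and size factor and carry no test.

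**Figure D3:**
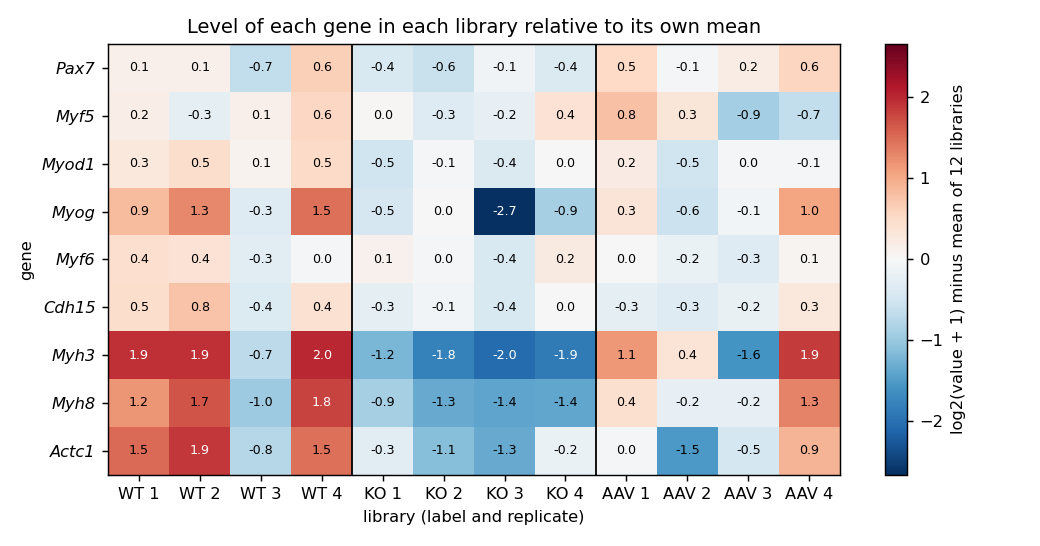
Level of each gene (rows) in each library (columns) as log2(value + 1) minus the mean of that gene over the 12 libraries, with red above and blue below that mean. WT 3 is blue for Myh3, Myh8, Actc1 and Myog while the other WT libraries are red, and AAV 4 is red for the same 4 genes.

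Markers of other cells moved with the same libraries. The summed level of 6 macrophage markers was 1262, 1197, 476 and 1479 normalized counts in WT, 286 to 610 in KO, and 673, 497, 322 and 1330 in AAV, so that WT 3 and AAV 3 were again low and AAV 4 high. Of these 6 markers, 2 were lower in KO than in WT (Cd68 and Cd14, log2 fold changes -3.35 and -2.01, limma adjusted p = 0.00513 and 0.00971) and none was higher. The defining marker Adgre1, the seventh on that list, was not found by name among the 15344 genes. The 6 endothelial markers summed to 2934, 1867, 5089 and 1876 in WT, to 4840 to 6072 in KO and to 3593 to 6140 in AAV. Of the 6, 3 passed both thresholds as higher in KO than in WT, and 1 as lower in AAV than in KO. The 7 smooth muscle and pericyte markers summed to 5642 to 12403 in WT, where WT 3 was highest, to 13100 to 15869 in KO and to 9125 to 15030 in AAV. Of these, 2 were called higher and 1 lower in KO than in WT, and 1 was called higher in AAV than in KO. The sums of 6 Schwann cell markers were 1156 to 2572 in WT, 1704 to 2757 in KO and 1472 to 4044 in AAV, with 1 of 6 called, as higher in KO than in WT. Those of 7 fibroblast markers overlapped in all groups, between 9454 and 20400. The 5 adipocyte markers, of which none was called in any comparison, summed to 193 to 2070 in WT, to 304, 948, 6684 and 511 in KO and to 776 to 1364 in AAV, so that KO 3, the lowest KO library in 6 of the 9 genes, was highest. The 4 tendon markers summed to 1025, 1895, 799 and 1836 in WT, where WT 3 was lowest, to 789 to 1134 in KO and to 992 to 1473 in AAV. Of these, Scx, a transcription factor of tendon cells, was lower in KO than in WT (log2 fold change -2.91, limma adjusted p = 0.00143) and higher in AAV than in KO (1.64, adjusted p = 0.0101). The 4 muscle spindle markers summed to 376 to 455 in WT, 310 to 385 in KO and 282 to 535 in AAV, and in KO against WT Ntf3 was higher (1.26, limma adjusted p = 0.0262) and Etv4 lower (-1.18, adjusted p = 0.00396). For the cardiac list 5 of 7 markers were not found by name among the 15344 genes, and 2 had values. Their sums were 24, 48, 213 and 63 in WT, 45 to 52 in KO and 459, 1045, 205 and 53 in AAV, so that 3 of the 4 AAV libraries lay well above the KO libraries and 1 lay next to them, and neither marker was called in any comparison. None of the markers with values was at 0 in all libraries. The part of these cells in the values of the 9 genes was not tested.

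Expressed as a share of their families per kb of exons, the developmental isoforms were a trace of adult quadriceps RNA. Actc1 made up 0.654, 0.635, 0.145 and 0.638% of the sum of Actc1 and the adult skeletal actin Acta1 in WT, 0.102 to 0.21% in KO, and 0.409, 0.104, 0.18 and 0.601% in AAV. Acta1 itself was at 1236129 to 1753643 normalized counts in WT and 1181413 to 1285719 in KO, with a log2 fold change of -0.16 (limma adjusted p = 0.623). In AAV it was at 719662, 1020046, 1226334 and 944855, every value below those of WT, with log2 fold changes of -0.54 against WT and -0.37 against KO that did not pass the test (limma adjusted p = 0.415 and 0.386). Myh3 was 0.0778, 0.068, 0.0121 and 0.0986% of all sarcomeric heavy chains in WT, 0.00359 to 0.00506% in KO, and 0.0494, 0.0272, 0.00511 and 0.0983% in AAV. Myh8 was 0.0495, 0.0615, 0.011 and 0.0929% in WT, 0.00563 to 0.00701% in KO and 0.0329, 0.0198, 0.0145 and 0.0742% in AAV. The Myh8 share depends on the length used, as per kb of coding sequence its means were 0.103% in WT, 0.012% in KO and 0.0677% in AAV, above those of Myh3 on the same scale (0.0639, 0.00409 and 0.0448%). WT 3 lay nearer to the KO libraries than to the other WT libraries in each of these shares, and every AAV share of Myh8 was above every KO share.

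**Figure D4:**
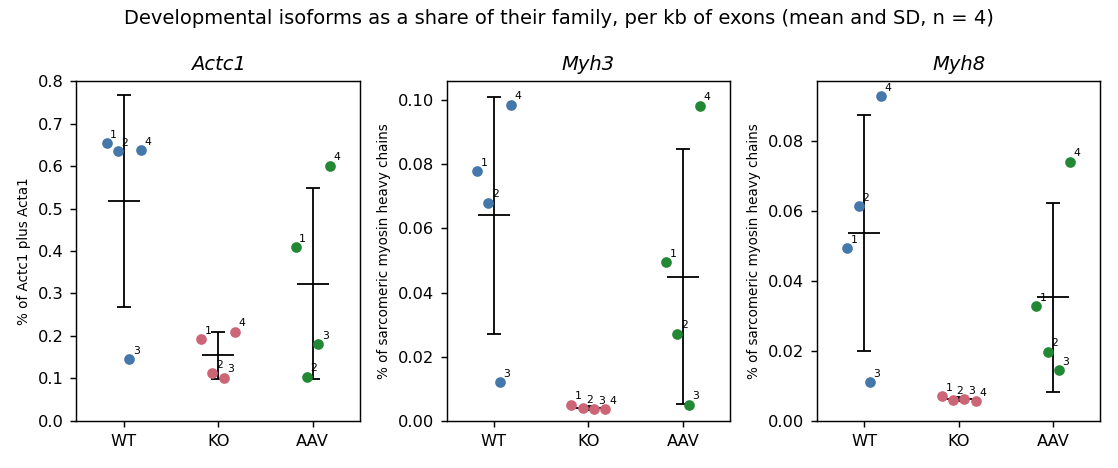
Share (y axis, percent, from 0) of Actc1 in the sum of Actc1 and Acta1, and of Myh3 and Myh8 in all sarcomeric myosin heavy chains, computed per kb of exons, by label. Points are libraries with their replicate number and bars give the mean and SD of 4. Mean shares of Myh3 were 0.0641% in WT, 0.00407% in KO and 0.045% in AAV. Those of Myh8 were 0.0537, 0.00622 and 0.0353%, and 0.103, 0.012 and 0.0677% per kb of coding sequence, which is not plotted.

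The genes around these regulators were counted in 8 lists, in which a gene counts as higher or lower where it passed both thresholds. Over all genes tested, 13.9% passed in either direction in KO against WT and 8.98% in AAV against KO. Among 13 genes of immature muscle, 8 were lower and 1 higher in KO than in WT, with a median log2 fold change of -1.81 against 0.02 for all genes. The embryonic light chain Myl4 (-3.23, limma adjusted p = 0.00277), cardiac troponin T Tnnt2 (-3.57, adjusted p = 0.00548), the fetal acetylcholine receptor subunit Chrng (-3.89, adjusted p = 0.0305) and the adhesion molecule Ncam1 (-2.06, adjusted p = 0.0191) fell most. In AAV against KO, 5 of the 13 rose and none fell, with a median of 1.33 against 0.04. Tnnt2 was at 800 ± 620 normalized counts in AAV and 67.8 ± 17.5 in KO (adjusted p = 0.0152), and Myl4 at 711 ± 364 and 109 ± 32.6 (adjusted p = 0.0077). The muscle LIM protein Csrp3 (2.12, adjusted p = 0.0342) and the intercalated disc protein Xirp1 (1.60, adjusted p = 0.00815) also rose. Chrng was low in KO, at 0.884 to 14.5 normalized counts, so that its fold change depends on the pseudocount.

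Of 9 sarcomeric myosin heavy chains, 6 were lower and none higher in KO than in WT, and 6 were higher and none lower in AAV than in KO, a comparison that shares the KO libraries. Myh4, the fast type IIB chain, was higher in KO by 0.73 (limma adjusted p = 0.0487), under the fold threshold. Besides the developmental members, Myh7, the slow type I chain, changed by -2.42 (limma adjusted p = 0.025) in KO against WT and by 5.78 (adjusted p = 0.00856) in AAV against KO. Myh7 was low in KO, at 11.12 to 14.49 normalized counts, against 15.38 to 247.5 in WT and 41.3 to 4306 in AAV. Its mean in AAV (1819) was above that in WT (110.8), without a call (3.36, limma adjusted p = 0.223). Myh7b changed by -2.18 (adjusted p = 0.0213) in KO against WT and by 2.66 (adjusted p = 0.0244) in AAV against KO. Of the 4 muscle actins, Actc1 was the only one called, in KO against WT.

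Of 8 genes known to respond to denervation, 6 were lower in KO than in WT, with a median of -2.61, and 3 were higher in AAV than in KO. They included the acetylcholine receptor subunit Chrnd (-3.46 and 2.38, limma adjusted p = 0.00679 and 0.0318), the transcription factor Runx1 (-2.76 and 1.90, adjusted p = 0.00166 and 0.0163) and the stress-response gene Gadd45a (-2.76 and 1.75, adjusted p = 0.00145 and 0.0111). Chrng and Ncam1 are on both this and the previous list of immature muscle. Of 9 proliferation genes, Top2a (-2.10, adjusted p = 0.0494) and Cdk1 (adjusted p = 0.0446, at 0 to 5.80 in KO and 1.62 to 39.0 in WT) were lower in KO. None passed both thresholds in AAV against KO, where the median of the 9 was 0.72 against 0.04 for all genes. Only 2 of the 9 were below 0 there. These were Pcna (-0.76, limma adjusted p = 0.00664) and Mcm2 (-0.41, adjusted p = 0.0487), lower by the adjusted p alone.

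In KO against WT, genes of the satellite cell and partners of the myogenic factors were called in both directions. Of all genes, 13.9% passed there in either direction, and 8.98% in AAV against KO. Of 15 satellite cell genes, 2 were higher and 1 lower in KO than in WT, with a median of -0.08. In AAV against KO, 2 of the 15 were higher and 1 lower. Pax3, the paralogue of Pax7, rose in KO (1.39, limma adjusted p = 0.00527) and fell in AAV against KO (-1.35, adjusted p = 0.0149), whereas the chemokine receptor Cxcr4 did the opposite (-1.30 and 1.29, adjusted p = 0.00914 and 0.00499). Chrdl2 was higher in KO (1.34, adjusted p = 0.011), and the growth factor receptor Fgfr4 was higher in AAV than in KO (1.21, adjusted p = 0.00873). Of 26 partners and cofactors, 1 was higher and 1 lower in KO than in WT, and 0 were higher and 2 lower in AAV than in KO. Twist1, a helix-loop-helix protein that inhibits Myod1, rose in KO from 33.8 ± 23.0 to 232 ± 49.0 (2.92, adjusted p = 0.00144) and fell in AAV (-2.53, adjusted p = 0.000542). Mdfi, another inhibitor of the myogenic factors, fell in KO (-4.36, adjusted p = 0.0135), and Eya4 fell in AAV against KO (-1.39, adjusted p = 0.00796).

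Of 13 myoblast fusion genes, 1 fell and 1 rose in KO against WT, where 13.9% of all genes passed in either direction. In AAV against KO, 1 of the 13 rose and 0 fell, against 8.98% of all genes in either direction. Tmem8c, the older symbol of the fusion protein myomaker, was at 6.49 to 275 normalized counts in WT, at 0.884 to 4.83 in KO and at 4.72 to 213 in AAV (limma adjusted p = 0.00848 for KO against WT and 0.0201 for AAV against KO). The junctional molecule Jam2 was higher in KO (1.25, adjusted p = 0.0115). In AAV against WT, none of the genes on the 8 lists was called by limma.

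Among 11071 genes with a mean of at least 50 normalized counts, those closest to the called members were found by Pearson r of log2(value + 1) over the 12 libraries. Closest to Myh3 were Tmem8c (0.992), Ngef (0.992) and Tor3a (0.988), and closest to Myh8 were Txn1 (0.984), S100a13 (0.984) and Tmsb10 (0.982). The genes closest to Actc1 were Cst6 (0.957), Slc44a2 (0.950) and Fam104a (0.945), and those closest to Myog were Cgref1 (0.932), Arl2bp (0.930) and Rfc3 (0.926).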

How the data were processed

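Quadriceps RNA-Seq was analysed from 12 mice in 3 groups of 4, assigned from the sample labels. Mice are the replicates. For the deposited signal, the authors trimmed reads (Trim Galore 0.4.1), mapped them with STAR to GRCm38 (Ensembl 73 in the methods), kept reads with a single location, counted genes with HTSeq 0.6.1, dropped genes that never reached 10 reads and scaled libraries by DESeq2 1.16.1 size factors; these are the normalized counts here. The authors' deposited tables also hold log2 fold changes with standard errors, the Wald score, p-values and adjusted p-values of their own comparisons, which were not used. No library column was left out (0). The 2 tables give identical KO values (largest difference 0), so that AAV and WT are on one scale. In every library 100% of values were whole multiples of 1 step (within 0.1 of a read), which gave back whole reads.

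Limma 3.58.1 with a trend on log2(value + 1) was run on the 8 libraries of each comparison, leaving out genes under 10 throughout, with Benjamini-Hochberg adjustment over all of them. Calls needed both an adjusted p below 0.05 and a log2 fold change of 1 or more in size, as in the study. The script was tested on simulated data with the same variability for all genes and no outlying library. That test does not show how calls behave with a library such as WT 3. Alternatives were a pseudocount of 0.1, no filter, DESeq2 1.42.0 and edgeR 4.0.16 on recovered reads, equal totals, a replicate block, all 12 libraries in 1 fit, and leaving out each library. Coordinates and lengths came from GENCODE M21 and transcript identities from BLAST. The members, the gene lists and the motifs were chosen with earlier results of these data known. Genes were named by rule, as the 9 members, Gaa, at most 4 called genes per list and comparison by size of change, and the 3 genes most like each called member. Outside that rule, Acta1 was named as the reference of Actc1. Also outside it, Cd68, Cd14, Adgre1, Scx, Ntf3, Etv4, Myh4, Pcna and Mcm2 were named after the values were seen.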

Additional observations from a re-analysis of the deposited data

Results flagged for a closer look

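Of 33 groups of 4 libraries examined (the 9 genes, Gaa and Acta1 in each group), 5 held a library whose gap to its nearest neighbour was a larger part of the range of the group than the 95% critical value of Dixon's test allows. Chance alone does so in about 1 group in 20. Myh3 in WT 3 was at 166.4 normalized counts, with the other WT libraries at 1040 to 1088. Myh8 in KO 1 was at 312.1, with the other KO libraries at 215.4 to 226.6. Gaa was at 14640 in WT 2, where the other WT libraries lay between 323.8 and 460.3, and at 9854 in AAV 4, where the others lay between 499.6 and 946.8. Acta1 in WT 2 was at 1753643, above the other WT libraries.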

How the results depend on the processing

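Of 414 log2 fold changes of single genes under alternatives, 387 kept their direction and their side of the thresholds, 17 were no longer called and 10 changed sign. Leaving out 1 library at a time gave 2 to 4 called genes of the 9 in KO against WT and 1 to 2 in AAV against KO, 0 in each such fit of AAV against WT, and over all genes 1332 to 3238, 787 to 1966 and 18 to 330 (2070, 1338 and 142 with all libraries). The count over all genes in KO against WT was 1332 without WT 2, 1358 without WT 4 and 3238 without WT 3. In AAV against KO it was 875 without KO 1, 843 without KO 4 and 787 without AAV 1. On recovered reads DESeq2 called 2212, 1543 and 417 genes and edgeR 2033, 1418 and 126. In AAV against WT the count was 250 with equal totals, 397 in 1 fit of all 12 libraries and 10 without WT 2 and AAV 4. That fit of all libraries called 1 of the 9 genes in AAV against KO, as Myh8 had an adjusted p of 0.0511. The causes were not tested, other than that fits with fewer libraries have fewer degrees of freedom.

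Sign changes were confined to small values that did not pass the test. In AAV against KO, Myf5 was at 0.03 with DESeq2, 0.02 with edgeR, 0.09 with equal totals, and 0.07, 0.19 and 0.11 without KO 4, AAV 3 and AAV 4 (range -0.37 to 0.19 with 1 library left out). Myf6 was at 0.08 with equal totals, and Cdh15 at -0.01 without KO 3 and -0.08 without AAV 4 (range -0.08 to 0.13). In AAV against WT, Pax7 was at -0.00099 without WT 3 (range -0.00099 to 0.43). Equal totals moved the median log2 fold change of all genes by 0.164 in AAV against KO and 0.15 in AAV against WT. The mean share of Myh8 in heavy chains was 0.104, 0.0121 and 0.0685% in WT, KO and AAV from the values as deposited, and 0.103, 0.012 and 0.0677% per kb of coding sequence, an alternative chosen after seeing the data.

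Replicate numbers name different mice. With the number as a block, the calls of the 9 genes were 4, 2 and 0, and over all genes 1830, 1003 and 120 were called. Same-numbered libraries had correlated deviations of -0.115 to 0.0253, -0.176 to 0.0618 and -0.355 to 0.554 in the 3 comparisons, so the numbers were not taken as pairs. Pax7 in AAV against KO had an adjusted p of 0.0625 with the block and 0.0794 in the fit of all 12 libraries. Myf5 had the lowest mean counts of the 9 genes in each group, at 15.35 to 50.99.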
